A study of Mus musculus with 23 samples.

Results

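The genes described here are Ciita, the switch that turns on the MHC class II genes, and 9 genes of the class II pathway itself: Cd74, H2-Aa, H2-Ab1, H2-Eb1, H2-DMa, H2-DMb1, H2-DMb2, H2-Oa and H2-Ob. They were found by gene symbol in the deposited gene identifiers, so that no measured value entered their choice, and all 10 were present among the 53090 genes of the tables. Each of the 10 passed the filter on low counts and belonged to the 18720 genes that were tested. RNA was sequenced from microglia, the resident macrophages of the brain, of female C57BL/6 mice in 23 libraries. The groups were 7 young libraries, 3 young repopulated libraries, 5 old libraries and 8 old repopulated libraries. Per the labels, microglia were depleted with PLX5622, an inhibitor of the receptor CSF1R on which these cells depend for survival, given in AIN-76A chow at 1200 ppm, and treatment controls ate the same chow with no drug. Repopulation is the return of microglia after such a depletion. The sources used here give no ages, no length of treatment, no time allowed for repopulation and no number of animals per library, so p-values measure the spread between these libraries. The protocols describe magnetic CD11b selection with culture as well as flow sorting, and CD11b is also carried by other myeloid cells.

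MHC class II molecules are pairs of an alpha and a beta chain that hold peptides from the endosome and show them to CD4 T cells. Ciita, the class II transactivator, does not bind DNA itself: it docks on RFX, CREB and NF-Y proteins sitting on the X and Y boxes of class II promoters. Cd74, the invariant chain, fills the groove of a new class II molecule and guides it to the endosome. H2-DM, made of H2-DMa with H2-DMb1 or H2-DMb2, exchanges the remnant of Cd74 for a peptide, and H2-O, made of H2-Oa and H2-Ob, inhibits H2-DM. Resting microglia are known for low class II levels, while dendritic cells, B cells and many monocytes and border-associated macrophages carry more.

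In GENCODE M21 on GRCm38, 8 of the 10 genes lie in the class II region of chromosome 17 and are protein-coding, like the others. From low to high coordinates on the plus strand these are H2-Oa (34092340 to 34095234), H2-DMa (34119541 to 34139101), H2-DMb2 (34143307 to 34151555), H2-DMb1 (34153072 to 34160230), H2-Ob (34238903 to 34254414), H2-Ab1 (34257689 to 34269419) and H2-Eb1 (34305867 to 34316674). H2-Aa (34282744 to 34287823) lies between H2-Ab1 and H2-Eb1 on the minus strand. Ciita is on chromosome 16 (10480059 to 10528418, plus strand), and Cd74 lies on another chromosome. H2-DMb1 and H2-DMb2 are near-identical neighbours, and their deposited counts were not whole numbers in 23 of 23 libraries, so that reads were divided between them and their separate values are uncertain.

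The promoter sequences below are shown because Ciita acts on class II genes through the X and Y boxes, and because H2-Aa and H2-Eb1, whose levels varied with Ciita, can be set beside H2-Oa and H2-Ob, which had r of -0.35 and -0.46 with Ciita across libraries. They come from RefSeq windows on GRCm38.p6 that reach from 250 bases before to 50 bases after a gene's start. Capitals mark the core of the X box, sought as AGCAAC or in the looser form NGNAAC, and the core of the Y box, ATTGG. Where no X core is stated, neither form was matched. X boxes with other letters were not sought, so such a gene may still have one. Starts are those of RefSeq, and the H2-DMb2 stretch lies inside that gene's GENCODE coordinates. Sequence before the GENCODE start of H2-DMb2 was not searched.
H2-Aa, chr17:34287852-34287921, minus strand: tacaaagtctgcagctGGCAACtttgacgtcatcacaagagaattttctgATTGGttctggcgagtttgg
H2-Eb1, chr17:34305758-34305827, plus strand: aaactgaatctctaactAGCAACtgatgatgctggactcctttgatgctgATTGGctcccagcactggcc
H2-Oa, chr17:34092286-34092355, plus strand: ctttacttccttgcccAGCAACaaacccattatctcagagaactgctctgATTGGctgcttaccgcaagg
H2-Ob, chr17:34238798-34238867, plus strand: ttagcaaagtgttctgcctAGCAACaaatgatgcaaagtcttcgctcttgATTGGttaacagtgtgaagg
H2-DMb2, chr17:34145109-34145178, plus strand, with no X core before its Y core: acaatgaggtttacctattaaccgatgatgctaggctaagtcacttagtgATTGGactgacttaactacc

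A window was found for 7 of the 10 genes, and Ciita, Cd74 and H2-Ab1 had none. On either strand, ATTGG occurred in all 7 of these genes and in 37.4% of the 32851 windows of all genes, while AGCAAC occurred in 3 of them (H2-Eb1, H2-Oa and H2-Ob) and in 14.8% of all windows. AGCAAC followed by ATTGG in the same orientation, with starts 20 to 45 bases apart, was found in the same 3 genes and in 0.444% of all windows. The looser NGNAAC, which contains AGCAAC and was chosen after the sequences were seen, preceded ATTGG at that spacing in 5 of the 7 genes and in 4.27% of all windows. The 5 were H2-Aa, H2-DMb1, H2-Eb1, H2-Oa and H2-Ob, with starts 34, 34, 33, 34 and 31 bases apart. The paired X and Y cores were thus found in H2-Oa and H2-Ob as well as in H2-Aa and H2-Eb1. Such matches describe letters in a window and say nothing of binding.

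Facts of the whole data set that touch these genes are few. Libraries held 43.66 M to 58.19 M counts in all. Library titles carry the numbers 1 to 11 in 10 libraries and 12 to 24 in 13, with 3 young, 2 old, 5 old repopulated and no young repopulated libraries in the lower run. The labels do not say what these numbers stand for. Each comparison was also fitted within 12 to 24, and those without young repopulated libraries also within 1 to 11. Young replicate 3 stood apart from the other young libraries, with counts for 16379 genes where the other young libraries had 18728 to 22020, and values without it are given beside the results it touches. The labelled cell type was present by its markers: the 10 microglia markers, among them P2ry12 and Csf1r, were detected in every library. In CPM (read counts scaled to library size by TMM), they summed to between 9814 and 31969.

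Ciita was lowest in young microglia by group median. Young libraries ranged from 0.0876 to 1.26 CPM with a median of 0.396, which corresponds to 4 to 56 counts per library. The young repopulated libraries had 5.90, 6.22 and 2.07 CPM. Old libraries had 0.862, 8.82, 32.9, 4.94 and 14.2 CPM, and old repopulated libraries ranged from 1.41 to 19.4 CPM with a median of 9.15. Every repopulated library of either age lay above every young library, while old replicate 1, at 0.862 CPM, lay within the young range.

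By TPM, deposited values that allow for gene length, Cd74 was the most abundant of the 10 genes in all libraries of the other 3 groups, while H2-DMa led in 6 of 7 young libraries. Its young values ranged from 34.2 to 248 CPM with a median of 68.6. Young repopulated libraries had 468, 650 and 243 CPM, and old libraries had 153, 855, 2232, 554 and 948 CPM. Old repopulated libraries ranged from 189 to 1471 CPM, with a median of 755. The highest young value, 248 CPM, came from young replicate 3, and the other young libraries stayed at or below 112 CPM. Each of the other groups overlapped the young range through this library.

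H2-Aa and H2-Ab1 encode the alpha and beta chains of I-A, the class II molecule that C57BL/6 mice display. H2-Aa ranged from 6.09 to 106 CPM in young libraries with a median of 15.7, was 199, 313 and 92.3 CPM in young repopulated libraries and 50.3, 401, 1123, 229 and 440 CPM in old libraries. In old repopulated libraries H2-Aa ranged from 66.8 to 699 CPM with a median of 357. Young replicate 3 again gave the highest young value, and old replicate 1 the lowest old value. H2-Ab1 followed the same order, at 16.5 to 111 CPM in young (median 30.6), 207, 320 and 104 CPM in young repopulated, and 60.5, 415, 1077, 227 and 435 CPM in old libraries. Old repopulated libraries had 75.3 to 691 CPM of H2-Ab1, with a median of 387.

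H2-Eb1 encodes the beta chain of I-E, whose alpha chain gene is defective in C57BL/6 mice. Its values were 5.24 to 88.0 CPM in young libraries (median 13.6), 177, 279 and 85.6 CPM in young repopulated libraries, and 42.2, 356, 944, 209 and 377 CPM in old libraries. Old repopulated libraries ranged from 59.6 to 579 CPM, with a median of 353. The disabled alpha chain gene, listed as H2-Ea-ps, had no count in 22 of 23 libraries and 0.0209 CPM in the remaining library. H2-Eb1 RNA was therefore present at levels like those of the I-A chains where its partner's RNA was at or near 0.

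**Figure D1:**
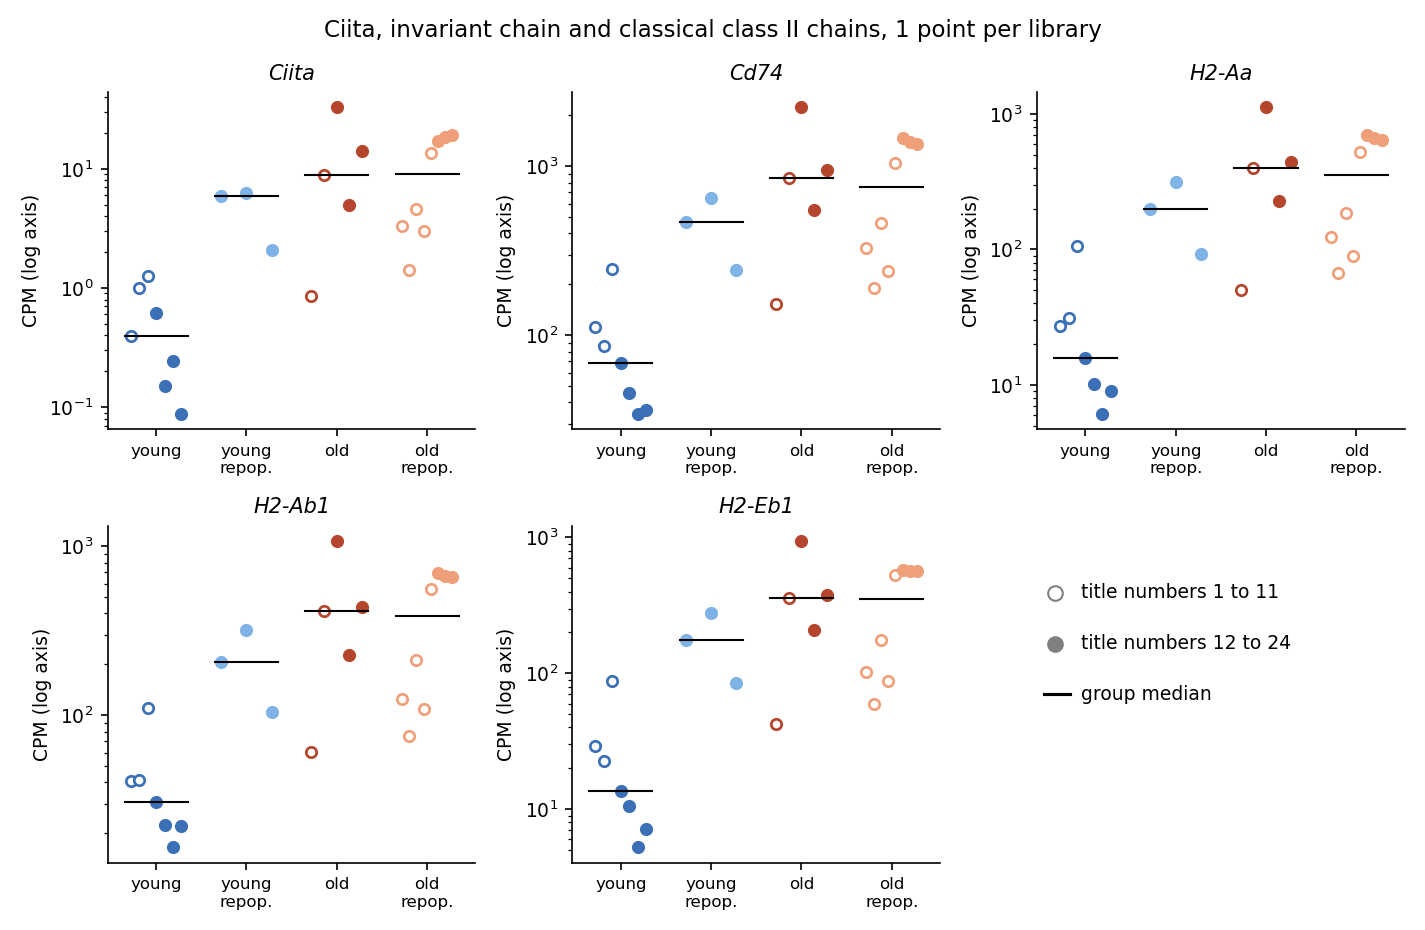
Levels of Ciita, Cd74, H2-Aa, H2-Ab1 and H2-Eb1 in CPM on log axes, with 1 point per library, open for title numbers 1 to 11 and filled for 12 to 24, and a line at each group's median. The young median is lowest in each panel, with young Ciita between 0.0876 and 1.26 CPM, and the old repopulated libraries form a lower and a higher set in each panel.

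The old repopulated libraries did not spread evenly. Replicates 1 to 4 had 189 to 459 CPM of Cd74, and replicates 5 to 8 had 1051 to 1471 CPM. The same libraries were low and high for Ciita, at 1.41 to 4.58 and 13.7 to 19.4 CPM. Replicates 6 to 8 carry title numbers 19 to 21 and replicates 1 to 5 title numbers 7 to 11, so that the higher set held all 3 old repopulated libraries of the upper run and 1 of the lower run. Young libraries went the other way, with 86.2 to 248 CPM of Cd74 in title numbers 1 to 3 and 34.2 to 68.6 CPM in 12 to 15. Old replicate 3 had the highest mean level of Cd74, H2-Aa, H2-Ab1 and H2-Eb1 among all 23 libraries, and young replicate 6 the lowest.

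Ciita, Cd74 and the 3 classical chain genes were higher in old than in young libraries. Ciita was 22.9-fold higher, or 4.52 ± 0.79 on the log2 scale (SE, adjusted p 0.0046 by edgeR), in a test across all 23 libraries adjusted over all genes tested. Cd74 rose by 3.40 ± 0.63 on the log2 scale (SE, adjusted p 0.00622). H2-Aa rose by 3.94 ± 0.78 (adjusted p 0.00803), H2-Ab1 by 3.45 ± 0.65 (0.00707) and H2-Eb1 by 3.94 ± 0.76 (0.00767). In each of these 5 genes, 4 of 5 old libraries lay above all 7 young libraries, and old replicate 1 lay within the young range. Full separation of old above young libraries held for none of the 10 members and for 1.43% of all genes.

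These were 5 of the 10 genes called at an adjusted p under 0.05, where 2.83% of all genes were called in this comparison and 2.6% were called higher. The median log2 change over the 10 genes was 1.88, beside -0.01 over all genes tested. Without old replicate 3, the highest of the old libraries, 4 genes were called, with H2-Aa at 3.26 (adjusted p 0.0502), and the changes of the 5 genes lay between 2.80 and 3.75. The calls over all genes fell to 100, or 0.536%, in that fit, from 530 with all libraries. Without young replicate 3 the same 5 genes were called, with changes of 3.89 to 4.88, and 3.38% of all genes were called. Within title numbers 12 to 24 these 5 genes and H2-DMb1 were called, where 15.7% of all genes were, and Ciita differed by 5.99 (adjusted p 0.000277). Within 1 to 11, with 3 young and 2 old libraries, no member was called, 2 had an unadjusted p under 0.05, and only 0.00533% of all genes were called. There Ciita, Cd74, H2-Aa, H2-Ab1 and H2-Eb1 differed by 2.44, 1.75, 2.04, 1.88 and 2.09, each with an adjusted p of 1.0.

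The genes of peptide loading did not pass the test with age. H2-DMa was 91.1 to 107 CPM in young libraries with a median of 99.7, and 99.0, 108, 103, 102 and 98.7 CPM in old libraries. Its log2 change was 0.05 ± 0.11 (SE, edgeR adjusted p 0.888). H2-DMb1 was 65.3 to 91.7 CPM in young (median 75.7) and 80.5, 84.9, 109, 80.3 and 87.9 CPM in old libraries, a difference of 0.25 ± 0.11 (SE, adjusted p 0.298) that voom with sample quality weights called. The scarcer H2-DMb2 was 4.62 to 7.61 CPM in young (median 6.00) and 6.82, 8.09, 12.2, 5.90 and 6.33 CPM in old libraries, a difference of 0.37 ± 0.19 (SE, adjusted p 0.365). In all 3 genes the groups overlapped, and old replicate 3, the library with the most Cd74, had the highest old value of H2-DMb1 and of H2-DMb2.

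H2-Oa and H2-Ob, which restrain H2-DM, passed no test between young and old libraries. H2-Oa was 14.3 to 23 CPM in young (median 19) and 18.2, 16.1, 16.2, 21.5 and 13.7 CPM in old libraries, with a log2 difference of -0.15 ± 0.32 (SE, edgeR adjusted p 0.891). H2-Ob was 30.5 to 38.8 CPM in young (median 34.7) and 46.5, 33.0, 18.4, 39.2 and 27.5 CPM in old libraries, with a difference of -0.09 ± 0.30 (SE, adjusted p 0.933). Old values of H2-Ob lay on either side of the young range, with 2 libraries above it and 2 below it.

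**Figure D2:**
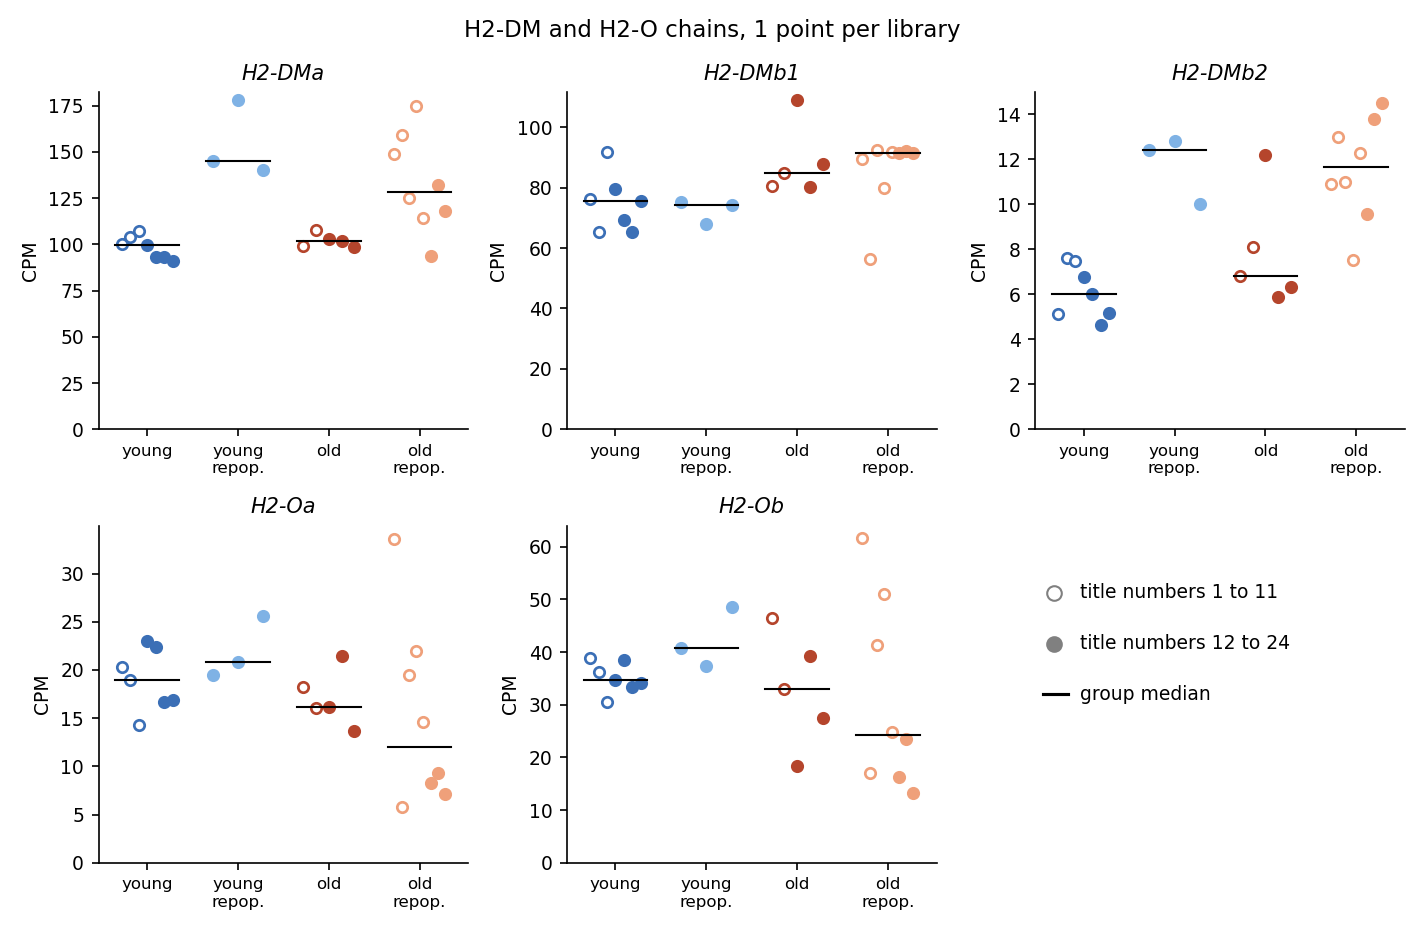
Levels of H2-DMa, H2-DMb1, H2-DMb2, H2-Oa and H2-Ob in CPM on linear axes from 0, with 1 point per library, open for title numbers 1 to 11 and filled for 12 to 24, and a line at each group's median. The 3 young repopulated libraries lie above all young ones for H2-DMa, at 140 to 178 CPM against 91.1 to 107, and old repopulated libraries spread widest for H2-Oa, from 5.81 to 33.6 CPM.

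H2-DMa and H2-DMb2 were higher in young repopulated than in young libraries. H2-DMa was 145, 178 and 140 CPM in young repopulated libraries, a log2 rise of 0.65 ± 0.13 (SE, edgeR adjusted p 0.0131). H2-DMb2 was 12.4, 12.8 and 10.0 CPM, a log2 rise of 0.94 ± 0.21 (SE, adjusted p 0.0296). Both genes were higher in 3 of 3 repopulated libraries than in any young library, as was Ciita, and such separation held for 5.97% of all genes, with a further 6.11% separated in the other direction. H2-DMb1, the other partner of H2-DMa, had 75.2, 68.0 and 74.1 CPM and a difference of -0.05 ± 0.13 (SE, adjusted p 0.92). H2-Oa, at 19.5, 20.8 and 25.6 CPM, and H2-Ob, at 40.8, 37.4 and 48.6 CPM, differed from young libraries by 0.21 ± 0.37 and 0.27 ± 0.35 (SE, adjusted p 0.853 and 0.802).

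Ciita and the classical genes showed larger differences in young repopulated versus young libraries that did not pass the test. Ciita differed by 3.14 ± 0.83 on the log2 scale (SE, edgeR adjusted p 0.0613), H2-Eb1 by 2.84 ± 0.80 (0.0792) and Cd74 by 2.33 ± 0.67 (0.0851). H2-Ab1 differed by 2.37 ± 0.69 (0.0918) and H2-Aa by 2.78 ± 0.82 (0.0922). In this comparison 1.34% of all genes were called, 0.828% higher and 0.513% lower, and the median change over the 10 members was 1.64 beside -0.04 over all genes.

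The count of 2 members called in young repopulated versus young libraries depended on the libraries and the fit. Without young replicate 3 it was 7, with Ciita at 3.50 (adjusted p 0.042) and H2-Aa at 3.61 (0.0187). Within title numbers 12 to 24, which hold all 3 young repopulated libraries, it was also 7, and Ciita, Cd74, H2-Aa, H2-Ab1 and H2-Eb1 differed by 4.14, 3.33, 4.33, 3.23 and 4.33 (adjusted p 0.00353, 0.00109, 0.000825, 0.00199 and 0.000696). No member was called without young repopulated replicate 1 or 2, and only H2-DMa was called without replicate 3 of that group or without young replicate 1, 5, 6 or 7. Ciita joined H2-DMa and H2-DMb2 without old replicate 1 or 3 or old repopulated replicate 1 or 2. Both DESeq2 and voom (with sample quality weights) called 6 members, and the fit of these groups alone called 7. The share of all genes called was higher in these fits as well, at 4.35% with DESeq2, 13.8% with voom, 7.5% with these groups alone and 9.3% within 12 to 24, and it was 1.83% without young replicate 3. With the title-number run as a term, edgeR called only H2-DMa and H2-DMb2 among the members, and 1.74% of all genes. That fit gave 2.60, 2.03, 2.54, 2.03 and 2.66 for Ciita, Cd74, H2-Aa, H2-Ab1 and H2-Eb1 (adjusted p 0.159 to 0.205).

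None of the 10 genes was called in old repopulated versus old libraries. Old repopulated versus old libraries differed by -0.29 ± 0.69 on the log2 scale for Ciita, -0.23 ± 0.58 for Cd74, -0.26 ± 0.71 for H2-Aa, -0.20 ± 0.60 for H2-Ab1 and -0.21 ± 0.70 for H2-Eb1 (SE, edgeR adjusted p 0.955 to 0.971). The sign of these 5 differences rested on old replicate 3: without it they were 0.49, 0.37, 0.42, 0.44 and 0.44. None of the 8 old repopulated libraries lay outside the old range for any of the 5 genes. The SE of 0.58 to 0.71 is the precision with which these differences were measured, so that equal levels were not shown.

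H2-DMa and H2-DMb2 had the smallest p-values among the members in old repopulated versus old libraries. H2-DMa was 93.8 to 175 CPM in old repopulated libraries with a median of 128, a difference of 0.38 ± 0.11 (SE, edgeR adjusted p 0.143), and 7 of 8 libraries lay above the highest old one. H2-DMb2 was 7.51 to 14.5 CPM with a median of 11.7, a difference of 0.55 ± 0.19 (SE, adjusted p 0.22), and voom with sample quality weights called it. H2-DMb1, at 56.2 to 92.5 CPM with a median of 91.4, differed by -0.05 ± 0.11 (SE, adjusted p 0.951). For the 10 members edgeR gave 0 calls, 2 unadjusted p-values under 0.05 and a median change of -0.19 beside 0.00 over all genes. DESeq2 gave 0 calls and voom with sample quality weights 1. Of all genes edgeR called 0.278%, 0.0641% higher and 0.214% lower, while DESeq2 called 1.66% and voom 2.21%.

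H2-Oa and H2-Ob spread most widely in old repopulated libraries. H2-Oa ranged from 5.81 to 33.6 CPM with a median of 11.9, and H2-Ob from 13.3 to 61.6 CPM with a median of 24.2. In title numbers 19 to 21 the values were 8.27, 9.33 and 7.16 CPM of H2-Oa and 16.2, 23.5 and 13.3 CPM of H2-Ob. Differences from old libraries were -0.19 ± 0.31 for H2-Oa and -0.08 ± 0.30 for H2-Ob (SE, edgeR adjusted p 0.921 and 0.972). Within title numbers 12 to 24 H2-Oa fell by 1.05 (adjusted p 0.00744), and it was the only member called there, where 12.7% of all genes were, while within 1 to 11 its difference was 0.16 (adjusted p 1.0).

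Old repopulated libraries were higher than young ones in 7 of the 10 genes by the test. Ciita was 18.8-fold higher, a log2 rise of 4.23 ± 0.75 (SE, edgeR adjusted p 0.00119), and all 8 old repopulated libraries lay above all 7 young ones, as was the case for 0.983% of all genes. H2-Eb1 rose by 3.73 ± 0.72 (adjusted p 0.0021), H2-Aa by 3.68 ± 0.74 (0.00259), H2-Ab1 by 3.25 ± 0.61 (0.0017) and Cd74 by 3.17 ± 0.59 (0.00155), with 6 of 8 libraries above the young range for each. H2-DMb2 rose by 0.92 ± 0.17 (adjusted p 0.00146) and H2-DMa by 0.44 ± 0.10 (0.00618), with 7 of 8 libraries above the young range for each. H2-DMb1 differed by 0.20 ± 0.10 (0.193), H2-Oa by -0.33 ± 0.28 (0.45) and H2-Ob by -0.18 ± 0.27 (0.704).

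In this comparison 15.2% of all genes were called with 9.29% higher and 5.92% lower, and the median change of the members was 2.04 beside -0.02 over all genes. Without young replicate 3 the same 7 genes were called. Within title numbers 1 to 11, with 3 young and 5 old repopulated libraries, no member was called, and only 0.0107% of all genes were. There Ciita differed by 2.55 (adjusted p 0.405) and Cd74 by 1.60 (0.433). Within 12 to 24, where 41.1% of all genes were called, so were 9 members, with Ciita higher by 6.08 (adjusted p 7.43e-05), H2-Oa lower by a log2 change of -1.25 (0.000304) and H2-Ob lower by a change of -0.98 (0.00538). H2-DMa was the member not called there, at 0.29 (adjusted p 0.0532). The comparisons with young libraries all share those 7 libraries.

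**Figure D3:**
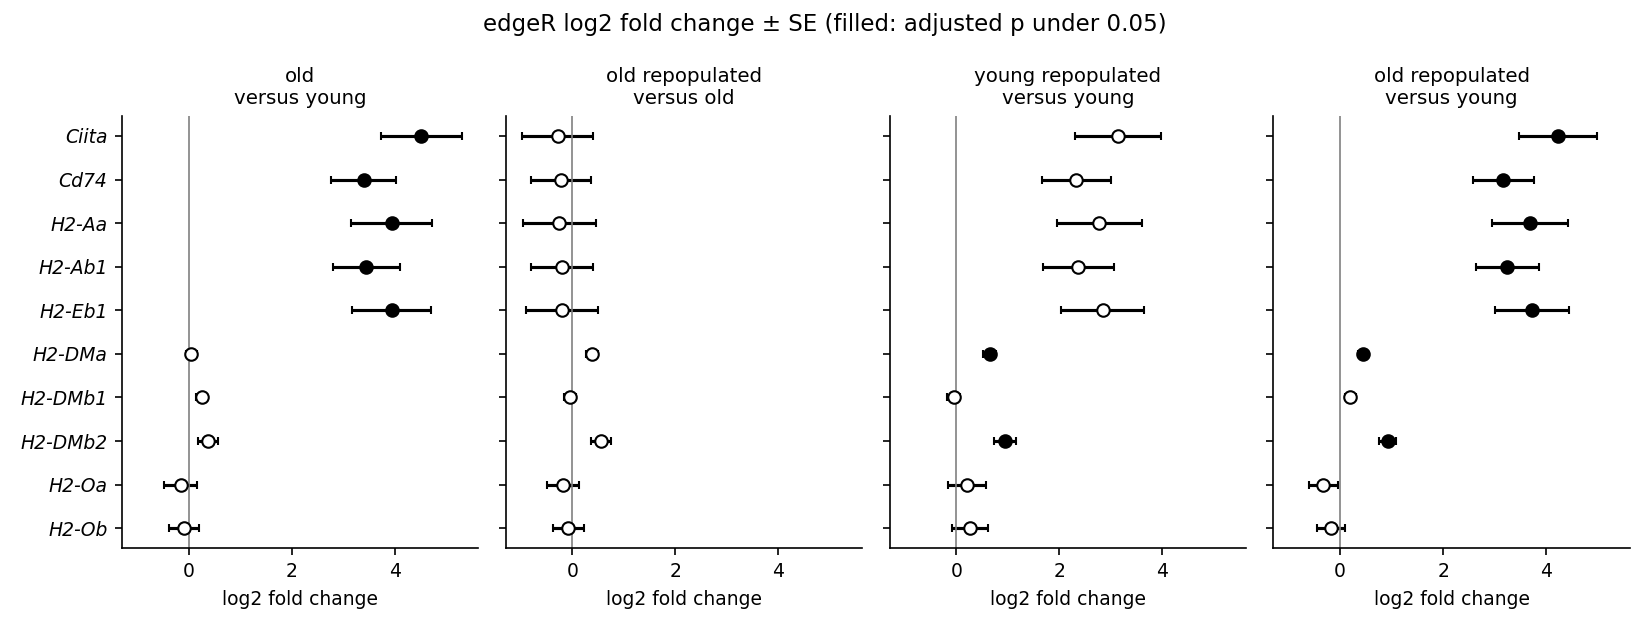
Log2 fold changes from edgeR with SE bars for the 10 genes in 4 comparisons, filled where the adjusted p is under 0.05. Ciita, Cd74, H2-Aa, H2-Ab1 and H2-Eb1 are filled in old versus young and in old repopulated versus young, H2-DMa and H2-DMb2 are filled in the comparisons of either repopulated group with young, and no point is filled in old repopulated versus old.

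Whether the difference between repopulated and other libraries depended on age was tested as an interaction, the old difference less the young one. The difference for Ciita was -3.42 ± 1.08 on the log2 scale (SE, edgeR adjusted p 0.423), and for H2-Aa, H2-Eb1, H2-Ab1 and Cd74 it lay between -3.05 and -2.56 (adjusted p 0.471 to 0.475). No member was called by edgeR, where 5 had an unadjusted p under 0.05. With DESeq2 0 members were called, and with voom 2, H2-Aa and H2-Eb1. Over all genes edgeR called 0.0%, with 1542 genes at an unadjusted p under 0.05, while DESeq2 called 44 genes and voom 151. Within title numbers 12 to 24 the interaction was called for 7 members and for 8.87% of all genes, with Ciita at -4.05 (adjusted p 0.0209), Cd74 at -3.15 (0.0151) and H2-Oa at -1.24 (0.0183).

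Old repopulated and young repopulated libraries were compared directly as well. Ciita differed by 1.10 ± 0.88 on the log2 scale (SE, edgeR adjusted p 0.605), and Cd74, H2-Aa, H2-Ab1 and H2-Eb1 by 0.83 to 0.90 (0.636 to 0.693). H2-DMa differed by -0.22 ± 0.13 (0.494), H2-DMb2 by -0.02 ± 0.22 (0.977) and H2-Oa by -0.54 ± 0.35 (0.527). By edgeR, 0 members were called, 0 had an unadjusted p under 0.05, and 0.0% of all genes were called, with 2183 genes at an unadjusted p under 0.05. DESeq2 called 0 members and 81 genes in all, and voom with sample quality weights called H2-Oa and H2-Ob, both lower, among 3189 genes in all. Within title numbers 12 to 24, with 3 libraries in each group, 9 members were called, 6 higher and 3 lower in old repopulated libraries, where that fit called 36.3% of all genes, and Ciita was higher by 1.93 (adjusted p 0.0263). Over all libraries no member separated these groups, while 1.21% of all genes lay wholly higher in old repopulated libraries and 1.05% wholly lower.

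By group median, Ciita ran from young (0.396 CPM) through young repopulated (5.90) and old (8.82) to old repopulated libraries (9.15). The differences of the old and old repopulated groups from the young group passed the test, that of the young repopulated group did not, and old repopulated libraries passed it against neither old nor young repopulated ones. The old group and the young repopulated group were not tested against each other. H2-DMa ran in another order, from young (99.7 CPM) and old (102) to old repopulated (128) and young repopulated libraries (145). For H2-DMa neither young against old, nor old against old repopulated, nor the 2 repopulated groups passed the test.

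Levels were compared between genes in TPM. H2-Aa and H2-Ab1, whose products pair, stood at a TPM ratio of 1.06 by median over all 23 libraries. The ratio was 0.393 to 1.11 in young libraries, with a median of 0.602, and 0.885 to 1.15 elsewhere. Cd74 exceeded H2-Ab1 in every library, with a ratio of 1.54 to 2.59 and a median of 1.96. H2-Oa and H2-Ob, which also pair, stood at 0.755 to 1.72 with a median of 0.99. H2-DMa exceeded H2-DMb1 in every library, by a median of 1.73 in young and 2.61 in young repopulated libraries.

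By median, the balance of the class II chains to their loading factor differed by group, while the ranges overlapped. H2-Ab1 stood at 0.28 of H2-DMa by median TPM in young libraries, below it in 6 of 7, and at 1.25, 3.75 and 2.88 times H2-DMa in young repopulated, old and old repopulated libraries. The ranges in these 4 groups were 0.165 to 1.03, 0.666 to 1.72, 0.611 to 10.1 and 0.477 to 6.98. H2-DMb1 stood at a median of 9.88 times H2-DMb2 in young and 9.09 in old libraries, and at 4.78 and 6.4 in young repopulated and old repopulated libraries. Reads were divided between H2-DMb1 and H2-DMb2, so their ratio is uncertain. These ratios follow from the levels already given and were not tested.

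Ciita and the 4 classical genes varied together across libraries. Pearson's r of log2 CPM lay between 0.98 and 1.0 for the 10 pairs among Ciita, Cd74, H2-Aa, H2-Ab1 and H2-Eb1 over 23 libraries, and between 0.93 and 1.0 after each group's mean was subtracted. Between these 5 genes and the other 5 members, r ranged from -0.50 to 0.71, and from -0.59 to 0.68 after subtraction. H2-Oa and H2-Ob formed a pair of their own, with r of 0.90 and, within groups, 0.88. Within groups H2-Ob ran against Ciita, with r of -0.54, and H2-DMb1 ran with it, with r of 0.62. H2-DMa was close to neither set, with r of 0.29 with Ciita and 0.20 with H2-Ob over all libraries. Within groups its r was -0.25 with Ciita and 0.40 with H2-Ob. The points share the group structure, the title-number runs and the cell makeup of each library, and r is given as a description.

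**Figure D4:**
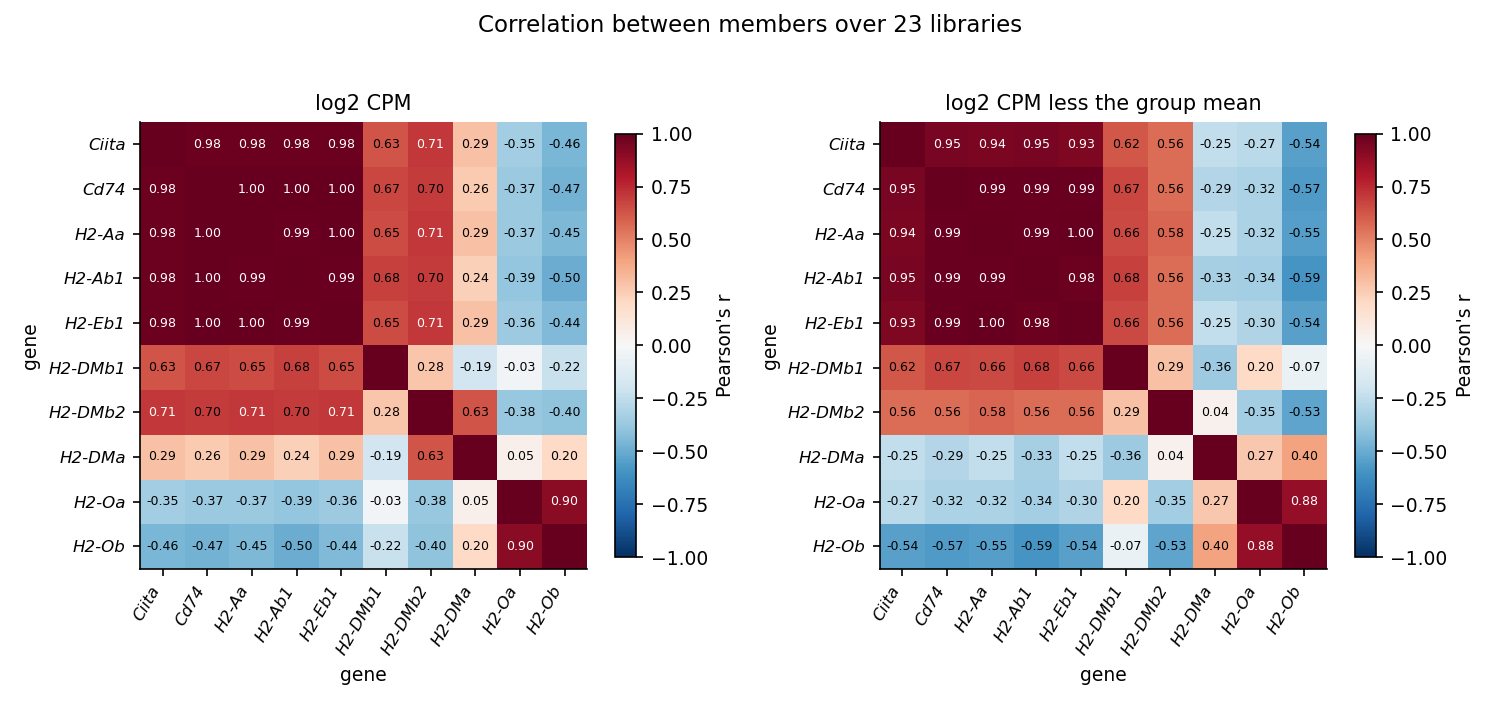
Pearson's r between the 10 genes over 23 libraries, for log2 CPM on the left and after subtraction of each group's mean on the right, with the colour scale from -1 to 1. Ciita, Cd74, H2-Aa, H2-Ab1 and H2-Eb1 form a block of r from 0.98 to 1.0 on the left and from 0.93 to 1.0 on the right, and H2-Oa with H2-Ob forms a second block at 0.90 and 0.88.

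Among 9411 other named genes with a mean of at least 5 CPM, the genes most like the mean of Cd74, H2-Aa, H2-Ab1 and H2-Eb1 over the 23 libraries were Plbd1 (r = 0.982), Itgb7 (0.981), Gpr171 (0.975), Papss2 (0.966) and Ccr2 (0.965). F10, Gda, Olfm1, Thbs1 and Ly6c2 followed, with r of 0.961, 0.961, 0.961, 0.957 and 0.956. Itgb7 encodes the beta 7 integrin chain of leukocytes, and Ccr2 and Ly6c2 are markers of classical monocytes. By median, Plbd1 went from 2.85 CPM in young to 42.8, 75.1 and 69.8 CPM in young repopulated, old and old repopulated libraries. With group means subtracted the 10 closest genes were Itgb7, Plbd1, Gpr171, Arg1, Ccr2, Ifitm1, Klrb1b, Slfn1, F10 and Papss2, with r from 0.957 to 0.914. The 5 genes most like Ciita were Itgb7, Plbd1, Olfm1, Papss2 and Gpr171, with r from 0.969 to 0.959, and with group means subtracted Nr1h3, Ly6c2, Itgb7, Olfm1 and Rgag4, with r from 0.927 to 0.918.

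The closest genes to the other members were looked up after their values were seen. H2-Oa was closest to Zfp110, Cfap74, Itpr2, Lag3 and B4galt4, with r from 0.91 to 0.89. Lag3 encodes a receptor that binds class II molecules, and its level ranged from 7.42 to 815 CPM over the old repopulated libraries. H2-DMa was closest to Rps4x (r = 0.89), a ribosomal protein gene, and Eef1a1 (0.881), a translation elongation factor. These likenesses include differences between groups. With group means subtracted, H2-Oa was closest to Atp6v0a2, Tppp, Liph, Adora3 and Arsg, with r from 0.94 to 0.907. H2-DMa was then closest to Crtc1 (0.814) and Dcaf12 (0.802).

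Monocyte markers and many, but not all, markers of dendritic cells and border-associated macrophages moved with Ciita and the classical genes, and microglia markers moved against them. With the mean of Cd74, H2-Aa, H2-Ab1 and H2-Eb1, r over 23 libraries was between -0.88 and -0.58 for the 10 microglia markers. It was between 0.51 and 0.96 for the 8 monocyte markers, with Ccr2 and Ly6c2 at 0.96. Among 10 dendritic cell markers, r was highest for Flt3 (0.93), Dpp4 (0.90) and Ccr7 (0.87), but it was -0.26 for Xcr1 and -0.61 for Batf3. Among 8 markers of border-associated macrophages, r was highest for Ms4a7 (0.87) and F13a1 (0.85), while it was 0.03 for Lyve1 and -0.15 for Cd163. H2-Oa moved with the microglia markers instead, with r from 0.49 to 0.85.

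The summed monocyte markers ranged from 274 to 1652 CPM in young, 626 to 1108 in young repopulated and 364 to 7493 CPM in old repopulated libraries. In old libraries they reached 4465 CPM with a median of 2148. Fn1, at 239 to 6166 CPM, was the largest part of the monocyte sum in every library, and its r with the class II mean was 0.51. The sums therefore say little of the scarcer markers. Of the 8 monocyte markers, 7 had a change above 0 in young repopulated versus young libraries (median log2 change 1.21), and 0 were called. Border-associated macrophage markers summed to 58.7 to 229 CPM in young, 299 to 417 in young repopulated, 188 to 902 in old and 73.2 to 1261 CPM in old repopulated libraries. Dendritic cell markers summed to 244 to 278 CPM in young, 383 to 499 in young repopulated, 301 to 659 in old and 205 to 503 CPM in old repopulated libraries. Most of each dendritic cell sum was Wdfy4 and Itgax. Microglia markers summed to 26110 to 31969 CPM in young, 23066 to 26800 in young repopulated, 10369 to 26582 in old and 9814 to 30013 CPM in old repopulated libraries. Old replicate 3, with the most class II RNA, had the lowest microglia sum of the old group and the highest monocyte, border-associated macrophage and dendritic cell sums of that group. In bulk RNA a larger number of such cells and more class II RNA per cell cannot be told apart, and the part of other cells in the class II results was not tested.

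**Figure D5:**
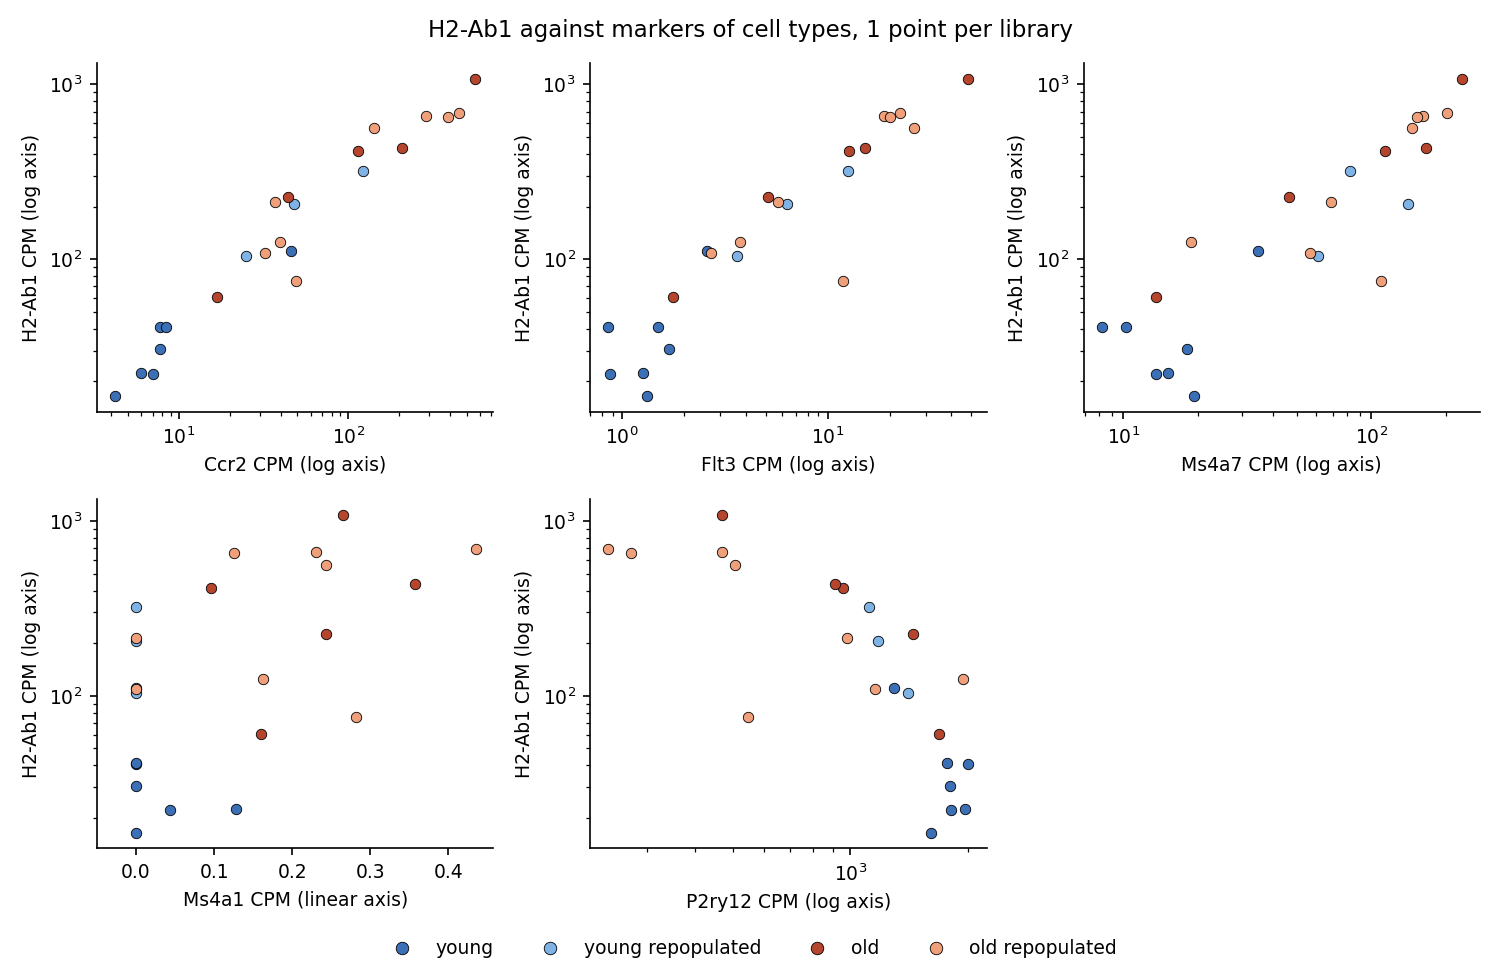
H2-Ab1 in CPM on a log axis against markers of monocytes (Ccr2), dendritic cells (Flt3), border-associated macrophages (Ms4a7), B cells (Ms4a1, linear axis) and microglia (P2ry12), with 1 point per library coloured by group. H2-Ab1 tends to be higher where Ccr2, Flt3 and Ms4a7 are higher and where P2ry12 is lower, and Ms4a1 stays at or below 0.436 CPM. Old repopulated replicate 2 departs from this, with 75.3 CPM of H2-Ab1 beside 109 CPM of Ms4a7 and 547 CPM of P2ry12.

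Several B cell markers and the T cell markers were at or near 0. The B cell genes Ms4a1, Cd79a and Pax5 reached at most 0.436, 0.403 and 0.23 CPM. Pax5 had no count in any young library. The 9 B cell markers summed to 160 to 230 CPM in young, 87.4 to 122 in young repopulated, 90.8 to 328 in old and 28 to 187 CPM in old repopulated libraries. Cd79b, part of the B cell receptor complex, reached 18.8 CPM in young libraries and Igkc, the kappa light chain, 26.2 CPM in 1 old library. Most of each sum was Ighm, which ranged from 23.2 to 288 CPM and ran against the class II mean, with r of -0.61. The 5 T cell markers summed to at most 2.34 CPM.

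By the test across all genes, 4 of 8 monocyte markers, 5 of 10 dendritic cell markers and 3 of 8 border-associated macrophage markers rose in old versus young libraries, and none fell. Ly6c2 rose by 6.25 ± 1.0 on the log2 scale (SE, edgeR adjusted p 0.00367), Flt3, the receptor that dendritic cells depend on, by 3.53 ± 0.64 (0.00562) and Ms4a7 by 2.74 ± 0.54 (0.00812). Of the microglia markers 1 of 10 was called lower, Fcrls, by 0.78 on the log2 scale (adjusted p 0.034). None of these 10 had a change above 0, and their median was -0.61 beside -0.01 over all genes. DESeq2 called 2 of them lower and voom 6, where 5.19% and 12.6% of all genes were called. Within title numbers 12 to 24 edgeR called 5 lower, where 15.7% of all genes were called, and within 1 to 11 it called 0. In young repopulated versus young libraries 2 dendritic cell markers rose, Cd209a by 5.23 ± 0.80 (adjusted p 0.00195) and Itgax by 1.65 ± 0.33 (0.0134), as did Ms4a7 by 2.47 ± 0.59 (0.0394). Old repopulated versus young libraries had 6 monocyte, 5 dendritic cell and 6 border-associated macrophage markers higher and 4 microglia markers lower, among them P2ry12 at -1.20 ± 0.35 (adjusted p 0.023). Old repopulated versus old libraries had 0 markers of these 4 lists called by edgeR, 3 had an unadjusted p under 0.05, and DESeq2 and voom each called 1, lower, a border-associated macrophage marker. The edgeR fit within title numbers 12 to 24 called 3 microglia markers lower, 2 border-associated macrophage markers higher and 1 lower, and 1 monocyte marker higher.

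H2-Eb2, a beta chain gene beside H2-Eb1, shared the pattern at a far lower level. It had no count in 5 of 7 young libraries and at most 0.0454 CPM in the others. It reached 0.15 to 0.178 CPM in young repopulated, 0.10 to 4.29 CPM in old and 0 to 2.92 CPM in old repopulated libraries. It was called higher in old versus young and in old repopulated versus young libraries (edgeR adjusted p 0.00647 and 0.00204). No fold is given against a group at so few counts.

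None of the factors that stand on class II promoters with Ciita was called higher by edgeR. Of RFX, NF-Y and CREB genes (Rfx5, Rfxank, Rfxap, Nfya, Nfyb, Nfyc and Creb1), 0 of 7 were called by edgeR in old versus young libraries, with 1 at an unadjusted p under 0.05, 0 called by DESeq2 and 1, lower, by voom with sample quality weights. Their median change was 0.07 beside -0.01 over all genes. Rfx5, the DNA-binding subunit of RFX, was 31.7 ± 5.18 CPM (SD) in the 7 young, 32.3 ± 3.34 in the 3 young repopulated, 31.9 ± 7.15 in the 5 old and 25.3 ± 8.11 CPM in the 8 old repopulated libraries. In old repopulated versus young libraries 1 of the 7 was called, Nfya, lower by a log2 change of -0.45 ± 0.09 (edgeR adjusted p 0.00263).

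Genes that control Ciita were examined next, from the interferon gamma receptor chains to Irf1 and the suppressor Socs1. Of 12 such genes in the tables, 11 were tested and 0 were called by edgeR over all libraries in old versus young. In that comparison 2 had an unadjusted p under 0.05, DESeq2 called 1, lower, and voom with sample quality weights called 1 higher and 1 lower. For this list edgeR called 3 higher and 1 lower within title numbers 12 to 24. Irf1, which binds the Ciita promoter after interferon gamma, was 132 ± 31.8 CPM in young (SD, n = 7) and 128 ± 32.4 CPM in old libraries (SD, n = 5). Ifng itself was not tested, with 0 counts in every young and every old repopulated library and at most 0.155 CPM elsewhere.

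Genes that prepare class II molecules in the endosome include proteases and the reductase Ifi30. Of 8 tested rows for Ctss, Ctsl, Ctsb, Ctsd, Lgmn, Ifi30 and Sppl2a, 0 were called by edgeR over all libraries in old versus young, with 2 at an unadjusted p under 0.05, 0 called by DESeq2 and 2, lower, by voom with sample quality weights. With only the groups compared edgeR called 1, lower, and within title numbers 12 to 24 it called 2, lower. Ctsl, a protease that can cut the invariant chain, fell in both comparisons of a repopulated group with young libraries. It was 2896 ± 353 CPM (SD) in the 7 young, 1309 ± 203 in the 3 young repopulated, 1835 ± 339 in the 5 old and 1364 ± 523 CPM in the 8 old repopulated libraries. The log2 changes from young libraries were -1.15 ± 0.28 (SE, adjusted p 0.0402) in young repopulated and -1.09 ± 0.20 (adjusted p 0.00135) in old repopulated libraries. Ctss, the main protease of that step in macrophages and dendritic cells, was 5652 ± 692 CPM in young and 8632 ± 477 CPM in young repopulated libraries, a difference of 0.61 (adjusted p 0.0757). Lgmn, another endosomal protease, fell by 0.31 on the log2 scale in old repopulated versus young libraries (adjusted p 0.0239).

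Costimulatory genes, whose products T cells read beside class II, were called in old repopulated versus young libraries. There Cd40 rose by 1.52 ± 0.49 on the log2 scale (SE, adjusted p 0.0374) and Cd80 by 1.08 ± 0.27 (0.0111), while Cd86 fell by 0.44 (0.0271). Cd40 was 2.66 ± 1.35 CPM in young (SD, n = 7) and 7.64 ± 5.58 CPM in old repopulated libraries (SD, n = 8). In old versus young libraries 0 of 5 costimulatory genes were called by edgeR, 4 had an unadjusted p under 0.05, and the calls were 2 by DESeq2 and 4 by voom. The other edgeR fits of that comparison called 1 with the run as a term, 2 with only the groups compared, 4 within title numbers 12 to 24 and 0 within 1 to 11. Cd83, which stabilises class II at the cell surface, fell by 0.76 in old repopulated versus young libraries (edgeR adjusted p 0.00688), and March1, the ubiquitin ligase that removes it from there, differed by -0.22 (0.342).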

How the data were processed

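Poly(A) RNA of brain microglia was sequenced as single reads of 50 nt from 2.4 to 147 ng of RNA, per the labels' protocols. The submitters' processing notes name FastQC 0.11.5, STAR, RSEM, limma and the build GRCm38; neither they nor the labels name an annotation or a strand setting. For each library the authors deposited a table of 53090 genes, and its expected counts (estimated read counts, 87.26% whole within 1e-06) were here rounded and tested. The TPM that the authors deposited served only to compare levels between genes. Gene coordinates come from GENCODE M21 by Ensembl identifier, ignoring its version, and promoter windows from RefSeq.

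With edgeR 4.0.16 (R 4.3.3), filterByExpr removed low genes, TMM scaled the libraries, and all 23 libraries fitted with 1 coefficient per group. The quasi-likelihood test was applied to 6 contrasts with Benjamini-Hochberg adjustment over 18720 genes, and a gene was called at an adjusted p under 0.05. The code was tested on simulated data. CPM are TMM-scaled, and correlations used log2 CPM with a prior count of 2. Alternatives were RLE size factors, no filter, DESeq2 1.42.0, voom with sample quality weights (limma 3.58.1), only the groups compared and title-number run as a term. Fits within each run that held the groups compared and fits leaving out each library were also made. Members, lists and tests were chosen with earlier results of these data known. The text names all members, up to 4 called genes per other list and the genes most like the class II mean and Ciita; other genes of those lists, the looser X core and the genes most like H2-Oa and H2-DMa were chosen after values were seen. Some genes of the lists are not reported here.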

Additional observations from a re-analysis of the deposited data

Results flagged for a closer look

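Among the 30 combinations of a member with a group of 4 to 10 libraries, 1 library lay far from the rest of its group. H2-DMb1 in old repopulated replicate 2 was at 56.2 CPM, where the other 7 libraries of that group had 79.8 to 92.5 CPM. Its gap to the nearest library was 0.7 of the group's whole range on the log2 scale, and chance alone flags about 1 in 20 such groups. Without this library H2-DMb1 was called in old repopulated versus young libraries, at 0.26 (edgeR adjusted p 0.033).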

How the results depend on the processing

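Of the log2 fold changes of single members, 1335 of 1380 values with 1 library left out and 357 of 440 under the other settings kept their direction and their side of the threshold. Under the other settings 48 passed the threshold where they had not before, 13 no longer passed it and 22 changed sign. Most of these changes came with voom, with sample quality weights, or with fits within 1 title-number run, and the cause was not tested. In the counts of members called, title numbers 1 to 11 gave 0 in old versus young and 0 in old repopulated versus young libraries. The share of all genes called there was 0.00533% and 0.0107%. In young repopulated versus young libraries the count was 6 with DESeq2, 6 with voom, 7 with only the groups compared and 7 within title numbers 12 to 24, and it ran from 0 to 7 with 1 library left out. In old repopulated versus old libraries it was 1 with voom (H2-DMb2) and 1 within 12 to 24 (H2-Oa). In old repopulated versus young repopulated libraries it was 2 with voom and 9 within 12 to 24, and for the interaction 2 and 7. With 1 library left out it was 4 to 5 in old versus young, 7 to 8 in old repopulated versus young and 0 in the remaining comparisons.

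Values that changed sign were small in the fit to all libraries. For old repopulated versus old libraries voom gave 0.27 for Ciita, 0.17 for Cd74, 0.20 for H2-Aa, 0.24 for H2-Ab1, 0.24 for H2-Eb1 and 0.01 for H2-DMb1. Title numbers 12 to 24 gave 0.09, 0.18, 0.17, 0.22 and 0.17 for the first 5 of these genes, and 1 to 11 gave 0.11 for Ciita and 0.16 for H2-Oa. Leaving out 1 library at a time gave -0.59 to 0.49 for Ciita, -0.51 to 0.37 for Cd74, -0.55 to 0.42 for H2-Aa, -0.48 to 0.44 for H2-Ab1, -0.50 to 0.44 for H2-Eb1, -0.09 to 0.04 for H2-DMb1 and -0.29 to 0.07 for H2-Ob. In old versus young libraries title numbers 1 to 11 gave -0.01 for H2-DMa and 0.18 for H2-Ob, and H2-Ob ran from -0.23 to 0.06 with 1 library left out. In young repopulated versus young libraries H2-DMb1 was 0.03 with voom and 0.03 within 12 to 24, and -0.08 to 0.03 with 1 library left out. In old repopulated versus young libraries 1 to 11 gave 0.10 for H2-Oa and 0.16 for H2-Ob. In old repopulated versus young repopulated libraries H2-DMb2 was 0.10 with voom, 0.08 within 12 to 24 and -0.12 to 0.05 with 1 library left out. The interaction of H2-DMb1 was 0.04 with the run as a term and -0.08 to 0.08 with 1 library left out.

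At 4 to 56 counts per young library, Ciita was the member with the least depth behind its values. No paired analysis was possible because the labels number each library once, from 1 to 24, and the replicate numbers used here only name libraries within a group, in accession order.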
